A study of Mus musculus and Homo sapiens with 41 samples.

Results

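The 8 genes described here encode the C/EBP transcription factors Cebpa, Cebpb, Cebpd, Cebpe and Cebpg and the Tribbles pseudokinases Trib1, Trib2 and Trib3. They were taken by gene symbol. No measured value entered the matching, but the members were chosen with earlier results of these data known. All 8 were among the 53756 rows of the table of granulocyte monocyte progenitors (GMPs), and 7 were among the 13238 genes of the 416b table. Trib2 was not analysed in 416b cells.

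C/EBP proteins are basic leucine zipper factors that bind DNA as dimers and set the course of myeloid differentiation. Cebpa is needed for the formation of GMPs, Cebpe for the later steps of granulocyte maturation, and Cebpb takes over when granulocytes are made on demand. Tribbles proteins have a kinase fold with little or no catalytic activity. They bind the ubiquitin ligase COP1 on one side and a substrate on the other, and Trib1 and Trib2 in this way bring C/EBPα to degradation. Trib3 is best known as a target of the stress factors ATF4 and CHOP. RNA levels, as measured here, say nothing of the amount of any of these proteins.

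The study addressed what PLZF, the zinc finger repressor encoded by Zbtb16, does in myeloid progenitors, by its loss in GMPs and by its overexpression in a cell line. The GMPs came from lethally irradiated C57BL/6 Cd45-1 hosts that had received WT or Zbtb16lu/lu bone marrow, and they were sorted 16 weeks after transplantation as Lin−, c-Kit+, Sca-1−, Cd34+, FcγR+ cells. The luxoid (lu) allele is a germline mutation, so every donor cell carried it, and both genotypes shared the transplantation and the irradiated host. The table holds 2 libraries per genotype, named here WT library 1 and 2 and Zbtb16lu/lu library 1 and 2. The 416b cells, a mouse myeloid progenitor line, were transduced with a lentivirus carrying PLZF-Flag or with the Empty vector and sorted by GFP after a short culture, with 1 library per condition.

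The GMP libraries held 37562999 to 40170636 reads on genes. The Empty vector library of 416b cells held 54529689 reads and the PLZF-Flag library 19995819. All values are counts divided by a size factor of the library, called normalized counts below, and 1 read was worth 0.964 to 1.03 normalized counts in GMPs, 0.605 in Empty vector and 1.65 in PLZF-Flag. The labels do not say that the libraries of a genotype came from separate animals, so p-values measure the spread between libraries, which may be technical. In sorted bulk cells, fewer cells of a type and less RNA per cell cannot be told apart. Column names carry dates, and WT library 1 and Zbtb16lu/lu library 2 share one. What was done on that date is not given in the sources used here.

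Zbtb16 itself was measured first. Its normalized counts were 705 and 828 in WT against 269 and 369 in Zbtb16lu/lu GMPs, a log2 fold change of -1.28 ± 0.20 (SE), and the genotypes did not overlap. In 416b cells Zbtb16 had 382 normalized counts in Empty vector and 2541 in PLZF-Flag. The markers of the sorted population, Kit, Cd34 and Fcgr3, were present in all 4 GMP libraries, Kit at 6511 to 7338, Cd34 at 12396 to 17633 and Fcgr3 at 9761 to 12074 normalized counts. In 416b cells the granule gene Mpo had 12.1 normalized counts with Empty vector and 3.30 with PLZF-Flag, while Ctsg had 2318 and 1676 and Prtn3 had 470 and 435.

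On mm10, Cebpa (chromosome 7, 35119293 to 35121928, plus strand) and Cebpg (chromosome 7, 35046422 to 35056573, minus strand) are neighbours. Cebpb (chromosome 2, 167688915 to 167690418) and Cebpd (chromosome 16, 15887286 to 15891031) are genes of 1 exon like Cebpa, and Cebpe lies on chromosome 14 from 54710360 to 54712174. Trib1 lies on chromosome 15 from 59648350 to 59657099, Trib2 on chromosome 12 from 15791727 to 15816922 and Trib3 on chromosome 2 from 152337422 to 152344032. Matching to RefSeq promoter windows of 300 bases on GRCm38.p6 gave sequence for 5 of the 8 genes, Cebpa, Cebpb, Cebpg, Trib2 and Trib3. The windows were searched on both strands for the TATA box (TATAAA), the CCAAT box, the C/EBP pattern (TTNNGNAA) and the C/EBP-ATF composite (TGATGNAA). These were held by 13.6%, 37.4%, 40.7% and 3.97% of 32851 windows of this length, respectively. The GC content was 80.7% for Cebpb, 71.7% for Cebpg, 71% for Trib2, 67.3% for Cebpa and 58.3% for Trib3, all above the median of 52.7%. Windows of Cebpa, Cebpb and Trib3 held TATAAA, that of Trib3 166 bases before the start site. The letters alone do not show that a TATA box is at work. Cebpg held CCAAT and Trib3 the composite, both on the opposite strand of the window as printed, so that the capitals show their reverse complements. None of the 5 windows held TTNNGNAA, which says only that these letters are not there. The stretches of 30 bases round these matches are shown, 1 for each window with a match, because they give the promoter pattern found nearest to the start site, with the match in capitals. They lie at chr7:35119251-35119280 on the plus strand for Cebpa, with the match 30 bases before the start site, and at chr2:167688924-167688953 on the plus strand for Cebpb, with the match 22 bases after the annotated start site. That of Cebpg lies at chr7:35056577-35056606 on the minus strand, with the match 28 bases before the start site, and that of Trib3 at chr2:152344028-152344057 on the minus strand, with the match 15 bases after it.
Cebpa: tgcccgaccctcTATAAAagcggtccccgc
Cebpb: caggcgccgcctTATAAAcctcccgctcgg
Cebpg: agcagcgcttctATTGGtcacggcggcggc
Trib3: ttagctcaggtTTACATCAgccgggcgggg

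Per kilobase of exon, Cebpa was the most abundant member in all 4 GMP libraries, with 1911 to 2776 normalized counts per kb, and Cebpe followed with 1163 to 1839. Cebpg came next in each of them. These places held in every library, and the lowest Cebpa level lay above the highest Cebpe level. Cebpd and Cebpb lay at 204 to 297 and 87.9 to 250.9 normalized counts per kb, and their ranges overlapped. In WT library 2 they were apart, at 204 and 87.9, and Cebpb lay below Trib1 at 89.8. Trib1 had 76.1 to 155, Trib2 3.08 to 12.7 and Trib3 0.454 to 6.08 normalized counts per kb, and the ranges of Trib2 and Trib3 also overlapped. Cebpa and Cebpe together made up most of the C/EBP signal per length, Cebpa 47.9% to 51.9% and Cebpe 30.6% to 34.8% of the sum over the C/EBP members.

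In 416b cells the order was another one, with Cebpb first and Cebpa second in both libraries. Cebpb had 1068 normalized counts per kb in Empty vector and 1026 in PLZF-Flag, and Cebpa had 1014 and 878. Cebpe, second in GMPs, was last of the 7 members measured, at 9.75 and 12.0 normalized counts per kb. Trib3, at or next to the bottom in GMPs, stood level with Cebpd, at 257 normalized counts per kb in Empty vector. The tables were normalized separately and their kits differed, so only the order within a library is compared here. The part of the kits in this order was not tested.

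**Figure D1:**
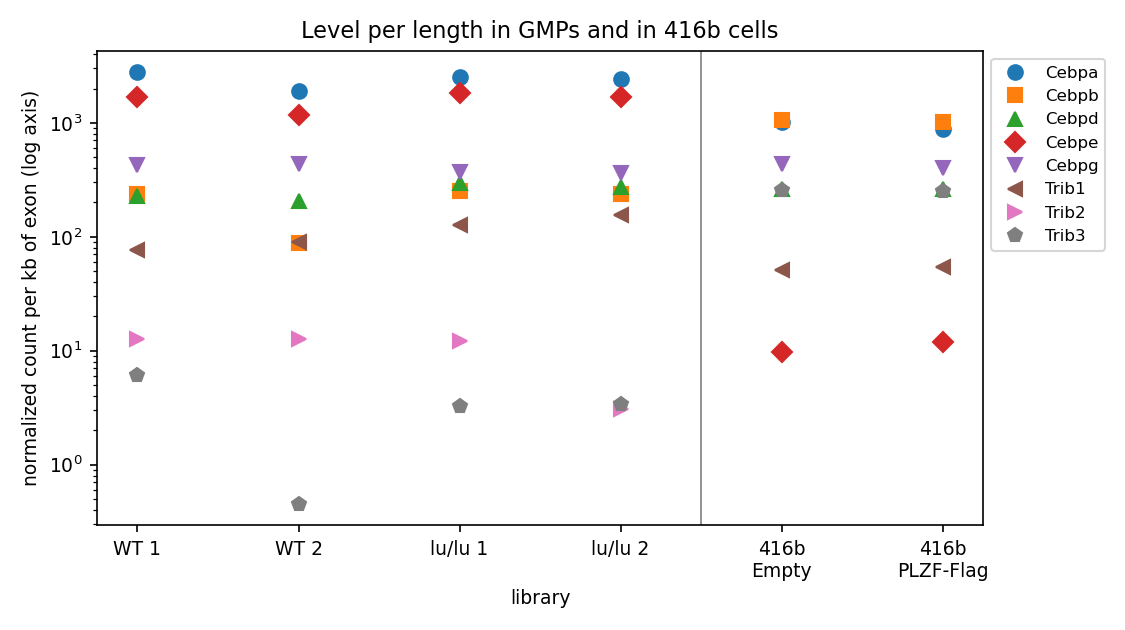
Normalized count per kilobase of exon (log axis) of each member in the 4 GMP libraries (WT and Zbtb16lu/lu, written lu/lu) and the 2 416b libraries, 1 point per gene and library. Cebpe lies second in every GMP library and last in both 416b libraries, while Trib3 goes the other way.

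Zbtb16lu/lu and WT GMPs were compared with limma on log2(normalized count + 1) over 20531 genes that reached 10 normalized counts in 2 or more libraries, and 7 members were tested. No gene passed an adjusted p of 0.08 (0% called), with 2028 genes at an unadjusted p under 0.05. Trib1 and Cebpd were the 2 members in the upward part of these, which took 5.5% of all genes tested. The quasi-likelihood test of edgeR on the recovered reads also called 0 genes. DESeq2 on the same reads called 161 genes as higher, 0.784% of those tested, and 59 as lower. Of the members, Trib1 alone was among them.

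Trib1, the Tribbles gene with the highest level in GMPs, had 475 and 561 normalized counts in WT, against 788 and 968 in Zbtb16lu/lu. Both Zbtb16lu/lu libraries lay well above both WT libraries. The log2 fold change was 0.76 ± 0.17 (SE, 95% interval 0.36 to 1.15), or 1.69-fold, with an adjusted p of 0.326 in limma, 0.370 in edgeR and 0.0209 in DESeq2. Within the shared date the log2 difference was 1.03, and it was 0.61 to 0.91 with each library left out in turn. Its unadjusted p of 0.00199 was the lowest of the members.

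Trib2 had 54.7 and 54.97 normalized counts in WT, against 53.2 and 13.4 in Zbtb16lu/lu. The genotypes did not overlap, but only just, and the low value of Zbtb16lu/lu library 2 rested on 13 reads. Its log2 fold change was -1.001 ± 0.61 (SE), with a limma adjusted p of 0.590, and -0.04 without Zbtb16lu/lu library 2. Trib3 was too low to be tested, with 13 and 1 reads in WT and 7 and 7 in Zbtb16lu/lu, and no difference was detectable from so few reads.

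**Figure D2:**
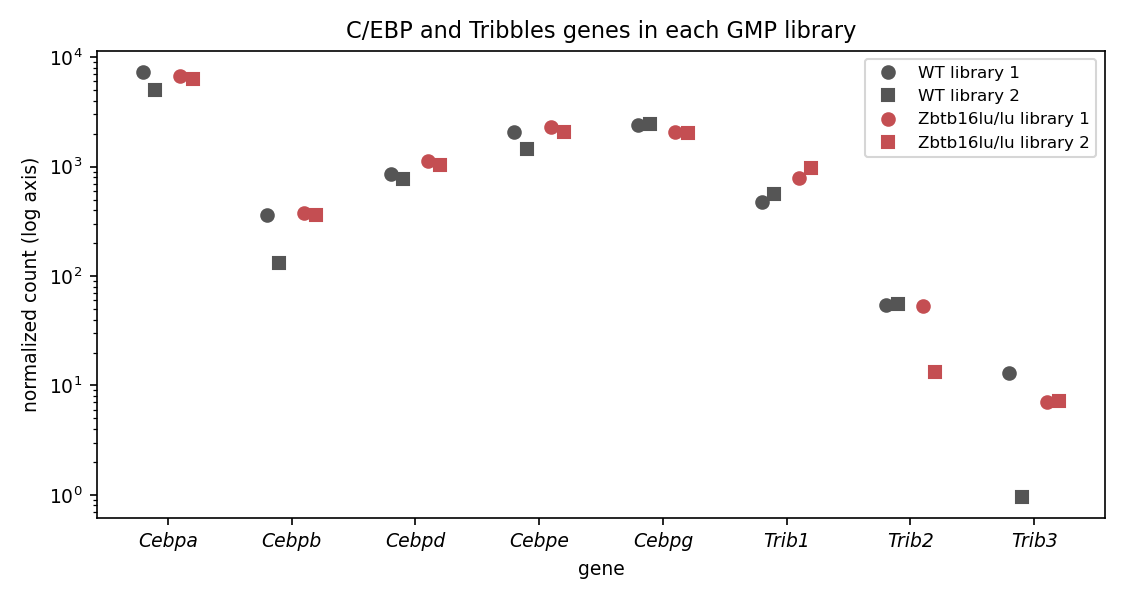
Normalized counts (log axis) of the 8 members in each of the 4 GMP libraries, 1 point per library. Trib1 and Cebpd have both Zbtb16lu/lu points (red) above both WT points (grey), Cebpg is lower, and Cebpa, Cebpb, Cebpd, Cebpe and Trib3 are lowest in WT library 2.

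Cebpd, a factor induced by inflammatory signals, had 860 and 765 normalized counts in WT, against 1114 and 1025 in Zbtb16lu/lu. All Zbtb16lu/lu values exceeded all WT values. The log2 fold change was 0.40 ± 0.14 (SE, 95% interval 0.07 to 0.73), with a limma adjusted p of 0.466. It was 0.25 within the shared date and 0.31 to 0.48 with each library left out in turn. Cebpg, which lacks a strong activation domain and pairs with other C/EBP and ATF proteins, went the other way, with 2412 and 2451 normalized counts in WT, against 2061 and 2028 in Zbtb16lu/lu. Its replicates lay close together and the genotypes did not overlap, with a log2 fold change of -0.25 ± 0.12 (SE) and a limma adjusted p of 0.519. The log2 difference of Cebpg was -0.25 within the shared date too.

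Cebpa had 7318 and 5036 normalized counts in WT, against 6663 and 6347 in Zbtb16lu/lu. Both Zbtb16lu/lu values lay between the WT values. The 95% interval of the log2 fold change ran from -0.29 to 0.48, so a change in either direction stays possible. The log2 fold change was 0.10 ± 0.17 (SE), with a limma adjusted p of 0.861. It was 0.37 without WT library 1 (limma adjusted p of 0.00797, with the lone WT library assumed to vary like the Zbtb16lu/lu pair), -0.17 without WT library 2 and -0.21 within the shared date.

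Cebpe had 2074 and 1444 normalized counts in WT, against 2282 and 2072 in Zbtb16lu/lu, and Cebpb had 360 and 132 in WT against 377 and 360 in Zbtb16lu/lu. For both genes WT library 2 was low and the other libraries lay close together, and the genotypes overlapped. The log2 fold changes were 0.33 ± 0.18 for Cebpe and 0.75 ± 0.40 (SE) for Cebpb, with limma adjusted p of 0.563 and 0.557. Without WT library 2 they were 0.07 and 0.03. Without WT library 1 they were 0.59 and 1.47, with limma adjusted p of 2.89e-05 and 3.16e-10, where the lone WT library is assumed to vary like the Zbtb16lu/lu pair. They were -0.0019 and -0.00056 within the shared date.

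Of the 7 members tested, 2 were higher without overlap and 2 were lower without overlap. Over all genes tested 21.7% were higher and 22.1% lower in this way, so the members' counts are near the background.

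Of the members, 5 had their lowest value in WT library 2. Cebpa, Cebpe and Cebpb have the highest GC content of exons, at 62.6%, 61.5% and 67.2%, while Trib3 has 58.2% and Cebpd 51.6%. Cebpg, Trib1 and Trib2, at 43.3%, 54.0% and 49.8%, were not lowest there. Among genes averaging 100 or more normalized counts, the median log2 difference of WT library 2 from WT library 1 went from 0.25 under 40% GC to -0.29 at 60% to 65% and -0.43 above that. The same differences of Cebpa, Cebpe and Cebpb were -0.54, -0.52 and -1.44, and those of Cebpd and Trib3 -0.17 and -2.83, the last from 13 reads and 1 read. Over those genes the median log2 fold change of Zbtb16lu/lu over WT was -0.21 under 40% GC and 0.03 at 50% to 55%. It was 0.29 at 60% to 65% and 0.64 above that. Cebpa, Cebpe and Cebpb were at 0.10, 0.33 and 0.75, and Trib1 and Cebpd at 0.76 and 0.40. After a correction for GC content and exonic length, the genotypes differed on the log2 scale by -0.34 for Cebpa, -0.05 for Cebpe and 0.09 for Cebpb, and for Trib1, Cebpd and Cebpg by 0.63, 0.32 and -0.16. The part of GC content in the values of single genes was not tested further.

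**Figure D3:**
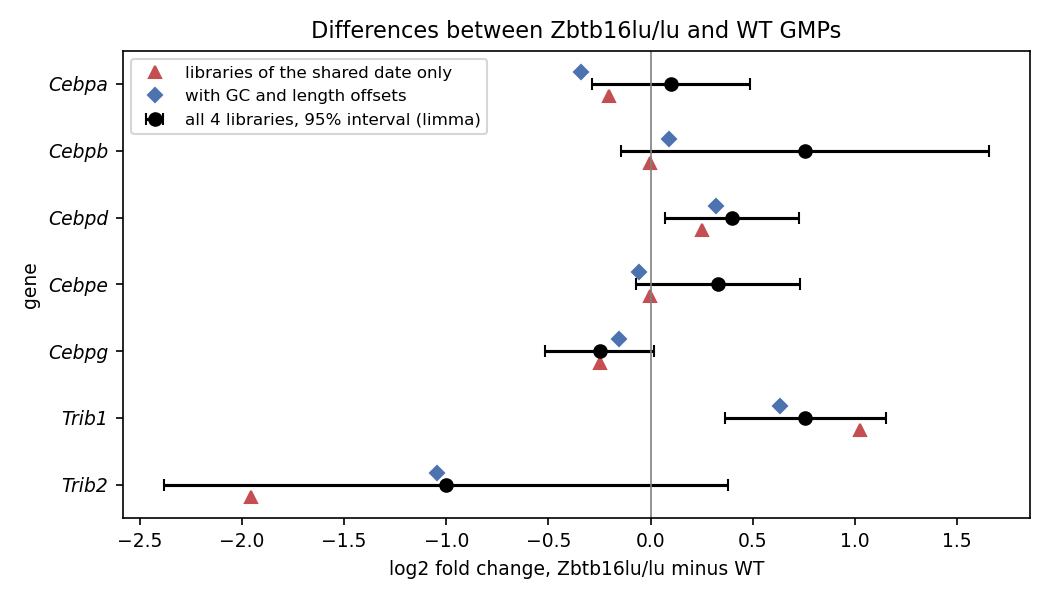
Log2 fold change of Zbtb16lu/lu over WT GMPs for the 7 members tested, from all 4 libraries with its 95% interval (black), from the shared date only (triangles) and with GC and length offsets (diamonds). For Trib1, Cebpd, Cebpg and Trib2 the 3 values lie on one side of 0, and for Cebpa, Cebpb and Cebpe they do not.

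Some members share exonic bases with other genes on the opposite strand, Cebpb 312 with Tmem189, Cebpd 562 with Spidr, Cebpa 51 with Gm45091 and Cebpg 4 with Gm45095. Cebpg also shares 73 bases with Gm44836 on the same strand, which counting by strand would not separate. Since the strand setting of the counting is not given in the sources used here, reads from these stretches cannot be assigned with certainty. Trib1, Trib2, Trib3 and Cebpe share no exonic base with another gene.

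For each member tested, the gene with the most similar pattern was sought among 13863 genes averaging 100 or more normalized counts, by the distance between log2 values centred over the 4 libraries. Dtx3 was nearest to Trib1 at a distance of 0.05, with 915 and 1085 normalized counts in WT, against 1557 and 1820 in Zbtb16lu/lu, and 16 genes lay within 0.2 of Trib1. Nearest to Cebpd was Rpsa-ps4, to Cebpg Ube3c, to Cebpe Galk1, to Cebpb Gng5-ps and to Cebpa 2310033P09Rik. Within 0.2 there were 594 genes for Cebpd, 2606 for Cebpg, 420 for Cebpe, 5 for Cebpb and 835 for Cebpa, so over 4 libraries most of these patterns are common. Trib2 had no gene within 0.2, and Gm8459 was nearest at 0.66.

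The partners of the members were followed in 5 lists, and limma called no gene in any of them. The 7 genes of the COP1 ligase, through which Tribbles proteins act, had a median log2 fold change of -0.09, against -0.01 for all genes tested, and 3 were lower without overlap, as were 22.1% of all genes. This median was -0.17 without WT library 2, with 0 of 7 genes above 0, and -0.02 with GC and length offsets, against -0.04 for all genes in that fit. The largest differences were Cul4b at -0.28, Dda1 at 0.17 and Cul4a at -0.16. The kinases bound by Tribbles had a median of 0.06 over 5 genes tested, with Map2k2 at 0.32, Map2k4 at -0.22 and Akt1 at 0.08. This median was -0.09 with GC and length offsets, with 0 of 5 genes above 0, -0.13 without WT library 2 and 0.21 without WT library 1.

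Leucine zipper partners and repressors had a median log2 fold change of -0.03 over 9 genes, which was -0.19 without WT library 2 and 0.03 without Zbtb16lu/lu library 1. Atf5 was at 0.43, Jun at 0.32 and Batf2 at 0.24, and for all of them the genotypes overlapped. Atf4, at -0.15, was the 1 gene of the list that was lower without overlap, and 0 were higher. The ATF4 and CHOP targets, a list that shares Atf5 and Ddit3 with the previous one, had a median of -0.05 over 10 genes, which was 0.20 without WT library 1 and -0.32 without WT library 2. The largest differences among genes averaging 100 or more normalized counts were Atf5 at 0.43, Asns, which makes asparagine, at -0.33, and Psat1, of serine synthesis, at -0.27. Without overlap, 2 genes of this list were lower (Asns and Psat1) and 1 was higher (Ddit4, at 0.43), against 22.1% and 21.7% of all genes.

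Myeloid C/EBP targets had the highest median of the 5 lists. Of 19 genes tested 14 were higher without overlap and 0 were lower, a direction that 21.7% of all genes showed, and the median log2 fold change was 0.39. Of the 14, Mmp9 passed the filter on low values only through the Zbtb16lu/lu libraries. It had 15.9 and 0 normalized counts in WT, against 76.3 and 65.8 in Zbtb16lu/lu, so the filter favoured a higher value there. DESeq2 called Csf2ra, Lyz2 and Ltf from this list as higher, as it did 0.784% of all genes tested. Among genes of the list averaging 100 or more normalized counts, the 3 largest differences were those of the secondary granule genes Ltf, Camp and Ngp. Mmp9, below that level, was at 4.13. Ltf, encoding lactoferrin, had 56.7 and 11.6 normalized counts in WT, against 846 and 305 in Zbtb16lu/lu, a log2 fold change of 4.24 ± 0.69 (SE) with an adjusted p of 0.299 in limma and 0.0432 in DESeq2. Camp, encoding a cathelicidin, had 361 and 68.5 in WT against 1435 and 478 in Zbtb16lu/lu, and Ngp had 228 and 71.4 against 1080 and 366. For these genes too WT library 2 was the lowest, and the genotypes did not overlap.

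The C/EBP target list shares 6 genes with the mature neutrophil markers, 5 of them higher without overlap. With the GMP markers it shares 4, of which 3 were higher without overlap, and with the monocyte markers Csf1r, also higher in this way. The summed level of the 12 neutrophil markers was 14413 and 6628 normalized counts in WT, against 21656 and 10869 in Zbtb16lu/lu. This sum overlapped between genotypes, and within the shared date it was lower in Zbtb16lu/lu. S100a8 and S100a9 made up most of it, with 8098 and 4284 normalized counts in WT library 1. The median log2 fold change of the 12 markers was 1.29, and within the shared date it was 0.54, with 9 of 12 above 0. Of the 12 markers 7 were higher without overlap, against 21.7% of all genes, but 2 of the 7, Retnlg and Mmp9, passed the filter on low values only through the Zbtb16lu/lu libraries. Mmp9 was at 0 in WT library 2. The summed level of the 8 monocyte markers came to 86674 and 101325 for WT, and to 124744 and 117780 for Zbtb16lu/lu, with 6 higher without overlap, against the same 21.7%. Bone marrow had been depleted of cells with Cd11b, Gr-1 and other lineage markers and gated on c-Kit, steps meant to remove mature cells of both kinds. The part of any remaining ones in the values of the C/EBP targets or of Trib1 was not tested. Erythroid markers summed to 474 and 1623 normalized counts in WT, with 1352 and 527 in Zbtb16lu/lu, and megakaryocyte markers to 2158 and 5787 in WT, with 3195 and 1696 in Zbtb16lu/lu, so both sums overlapped between genotypes. The sum of T, NK and B cell markers overlapped too. Without overlap, mast cell and basophil markers summed to 9003 and 8753 in WT, against 8120 and 6356 in Zbtb16lu/lu. Stem cell markers came to 346 and 392 against 281 and 308, also without overlap. GMP markers were higher without overlap, at 783155 and 773957 in WT against 889557 and 874302. With GC and length offsets the median of the C/EBP targets was 0.25, with 14 of 19 above 0.

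**Figure D4:**
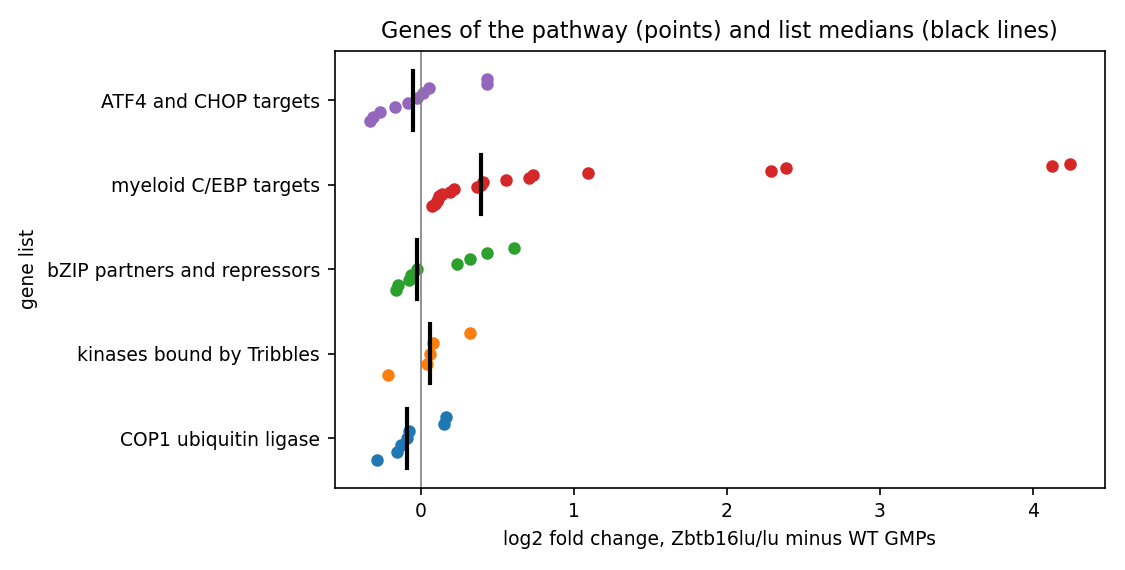
Log2 fold change of Zbtb16lu/lu over WT GMPs for each tested gene of 5 lists round the members (points), with the list medians as black lines. The myeloid C/EBP targets have a median of 0.39 and no value below 0, while the other medians lie between -0.09 and 0.06.

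In 416b cells, PLZF-Flag and Empty vector were compared by the log2 ratio of normalized counts after adding 1, with a 95% exact (Clopper-Pearson) interval from the reads, which covers counting error only. With 1 library per condition there is no replicate check. None of the 7 members reached 1.5-fold in either direction, which 1.69% of 11836 genes averaging 10 or more normalized counts did upward and 3.11% downward.

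Cebpa went from 2673 normalized counts with Empty vector to 2313 with PLZF-Flag, a log2 ratio of -0.21 (-0.30 to -0.12). Cebpg had 2453 and 2251, a ratio of -0.12 (-0.21 to -0.04). These were the members whose intervals lay below 0, as did those of 15.9% of all genes, and 0 members had an interval above 0, against 16.1%.

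Cebpb had 1607 and 1543 normalized counts, a log2 ratio of -0.06 (-0.17 to 0.05), and Cebpd had 980 in both libraries (interval of the ratio -0.14 to 0.14). Trib1 had 317 and 342, a ratio of 0.11 (-0.13 to 0.34), and Trib3 had 546 and 534, a ratio of -0.03 (-0.22 to 0.15). The intervals of these 4 genes all included 0. Cebpe had 20 reads with Empty vector and 9 with PLZF-Flag, and its interval from -1.02 to 1.497 was too wide to show any but a large difference.

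**Figure D5:**
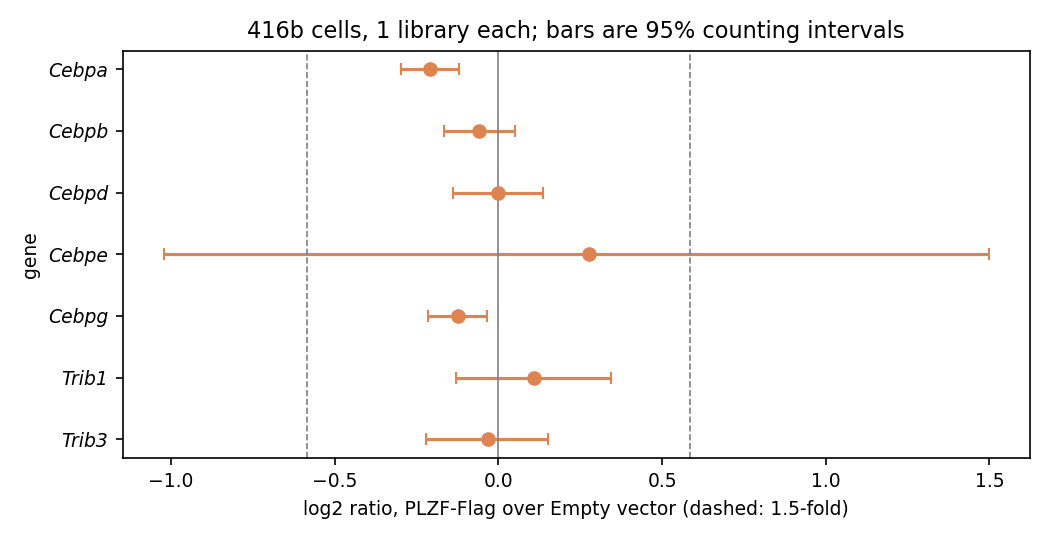
Log2 ratio of PLZF-Flag over Empty vector in 416b cells for the 7 members measured, 1 library per condition, with 95% counting intervals and dashed lines at 1.5-fold. Every ratio lies inside the dashed lines, and the intervals of Cebpa and Cebpg lie below 0.

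Among the lists in 416b cells, the COP1 ligase and the kinases bound by Tribbles had median log2 ratios of 0.03 and 0.03, and the ATF4 and CHOP targets of -0.05, with 0 genes past 1.5-fold. The leucine zipper partners had a median of -0.01, and 1 of 7, Fos, was past 1.5-fold downward, with 69.0 normalized counts in Empty vector and 41.3 in PLZF-Flag. The 9 myeloid C/EBP targets with a mean of at least 10 had a median of -0.11, against -0.00014 for all genes, and 1 of them, Lyz2, was past 1.5-fold downward, with 553 normalized counts in Empty vector and 335 in PLZF-Flag.

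Ratios between members can hold effects of the kit or of GC content on single genes, so they are compared within each experiment only. Within a library, the ratio of Trib1 to Cebpa is free of the library's scaling. It came to 0.0650 and 0.112 for WT, and to 0.118 and 0.153 for Zbtb16lu/lu GMPs, so it did not overlap between genotypes, with WT library 2 close to Zbtb16lu/lu library 1. In 416b cells it was 0.119 in Empty vector and 0.148 in PLZF-Flag. The ratio of Cebpe to Cebpa came to 0.284 and 0.287 for WT, and to 0.343 and 0.326 for Zbtb16lu/lu GMPs, without overlap, and 0.00453 and 0.00643 in 416b cells. The ratio of Cebpb to Cebpa came to 0.0492 and 0.0262 for WT, and to 0.0566 and 0.0567 for Zbtb16lu/lu, and 0.601 and 0.667 in 416b cells. The ratios of Cebpd and Cebpg to Cebpa were, for Cebpd, 0.118 and 0.152 for WT with 0.167 and 0.162 for Zbtb16lu/lu, and, for Cebpg, 0.330 and 0.487 with 0.309 and 0.320. All ratios to Cebpa given here separated the genotypes without overlap, that of Cebpg lower in Zbtb16lu/lu and the others higher. They all share the values of Cebpa, and how often other genes separate the genotypes in this way was not tested. The ratio of Trib1 to Cebpe overlapped, at 0.229 and 0.389 for WT with 0.345 and 0.468 for Zbtb16lu/lu.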

How the data were processed

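RNA-seq of GMPs (4 libraries) and of 416b cells (2 libraries) was used, and the other assays of the series were not analysed here. With mm10 as reference, the authors aligned the reads by Subread, counted them by featureCounts and divided counts by DESeq2 size factors, and the deposited signal values are these normalized counts. The submitters' processing notes give version 1.5.0 to featureCounts, while the study's methods give it to the aligner. Columns with the authors' means, log values, fold changes and p-values were not used. The study's methods state more RNA extractions per genotype than the libraries found in the table.

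Reads were recovered as multiples of the value of 1 read (within 0.1 read), which gave whole reads for 100% of the GMP values and for 84.8% and 85.5% of the 416b values. GMPs were tested with limma-trend (pseudocount 1, 10 or more in 2 or more libraries, Benjamini-Hochberg threshold 0.08), and edgeR and DESeq2 on recovered reads were alternatives. Tests were checked on simulated data. Lengths, GC content and positions came from GENCODE M21 (mm10) and promoters from RefSeq. Symbols found on more than 1 row were left out of the lists. The members, lists and tests were chosen with earlier results of these data known. Genes named are the members, Zbtb16, the 3 genes per list with the largest GMP difference at a mean of at least 100, and the nearest gene to each member. Other genes named, such as Lyz2, Csf2ra, Mpo, Mmp9, Atf4, Fos and Ddit4, were chosen after their values were seen. Tools were limma 3.58.1, DESeq2 1.42.0 and edgeR 4.0.16 in R 4.3.3, and scipy 1.17.1.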

Additional observations from a re-analysis of the deposited data

How the results depend on the processing

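In GMPs, DESeq2 called 220 genes where limma called 0, and edgeR, the other filters, pseudocounts, scalings, GC and length offsets and a threshold of 0.05 also gave 0. With 1 library left out the count ran from 1 to 4662 (4662 without WT library 1, 2749 without WT library 2, 1 without Zbtb16lu/lu library 1 and 64 without Zbtb16lu/lu library 2). In those fits the lone library is assumed to vary like the pair of the other genotype, so these counts depend on how alike that pair was. Of 104 alternative values of the members in GMPs, 86 kept direction and side of the threshold, 5 kept direction but had no adjusted p, 7 passed the threshold and 6 changed sign. With 1 library left out, Cebpa ran from -0.17 to 0.37. The sign changes were Cebpa at -0.34 with GC and length offsets, -0.17 without WT library 2 and -0.21 in the shared date, Cebpb at -0.00056 in the shared date, and Cebpe at -0.054 with the offsets and -0.0019 in the shared date. In 416b cells, 200 genes were past 1.5-fold upward and 368 downward. These counts were 110 and 225 with a pseudocount of 10, 17 and 59 at a mean of at least 100, and 681 and 720 with no filter. All 28 alternative values of the members in 416b cells stayed inside their intervals. No paired analysis was possible because no label or column numbers the GMP libraries as pairs. Depth limits the values of Trib2 and Trib3 in GMPs and of Cebpe in 416b cells, which rest on few reads.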
